A study of Mus musculus with 6 samples.

Results

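The genes of the interleukin-2 (IL-2) receptor, the Janus kinases (JAKs) and the CIS/SOCS feedback inhibitors were followed in mouse regulatory T cells (Tregs). The set comprised 10 of the 55573 genes in the count files, chosen by symbol after the Ensembl identifiers were matched to mouse gene names: the receptor chains Il2ra, Il2rb and Il2rg, the kinases Jak1, Jak2 and Jak3, and the inhibitors Cish, Socs1, Socs2 and Socs3. Tregs, labelled as such by the submitters, were sorted to over 90% purity from the spleens of bi-parental bone marrow chimeras. The blood cells of such mice derive from a mixture of transplanted donor marrows. The sorted Tregs were kept in medium for 2 h without treatment before lysis. Each genotype gave 3 libraries: wild type, and Nfkb2-/-, which carries a disruption of the gene encoding p100, an NF-kB precursor and inhibitor. The age, sex and strain of donors and hosts, the congenic markers and the part of Nfkb2 that was disrupted are not given in the labels. Replicates are called biological repeats there, with no statement of whether each came from a separate animal or whether the genotypes shared hosts. Every p-value therefore measures the spread between these libraries.

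Tregs carry the high-affinity IL-2 receptor and depend on IL-2 made by other T cells for survival. The alpha chain CD25 (Il2ra) raises affinity without signalling, while the beta chain (Il2rb) and the common gamma chain (Il2rg) carry the signal: JAK1 bound to the beta chain and JAK3 bound to the gamma chain phosphorylate the transcription factor STAT5. CIS (Cish) and the SOCS proteins are induced by STAT factors and restrain the same receptors and kinases, and JAK2 serves other cytokine receptors, such as those of interferon-gamma.

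Promoter sequence is shown for a receptor chain whose libraries lay lower in Nfkb2-/- and one whose libraries lay higher, neither called by the test described below, because the disrupted gene encodes a DNA-binding NF-kB protein. RefSeq promoter sequences (GRCm38.p6) were matched for 8 of the 10 genes, and the 250 bases before the start site were searched on both strands for the NF-kB consensus motif and for the STAT motif TTCNNNGAA. These windows lie at chr2:11642542-11642791 (plus strand) for Il2ra and at chrX:101268256-101268505 (minus strand) for Il2rg, and neither contains an annotated exon. They are written 5′ to 3′ in lower case, with motif matches in capitals.
Il2ra: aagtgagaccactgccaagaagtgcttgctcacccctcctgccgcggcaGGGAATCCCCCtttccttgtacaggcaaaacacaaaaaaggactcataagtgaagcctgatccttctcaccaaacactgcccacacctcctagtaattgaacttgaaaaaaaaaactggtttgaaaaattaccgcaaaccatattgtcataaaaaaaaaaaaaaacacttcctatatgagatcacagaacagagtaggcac
Il2rg: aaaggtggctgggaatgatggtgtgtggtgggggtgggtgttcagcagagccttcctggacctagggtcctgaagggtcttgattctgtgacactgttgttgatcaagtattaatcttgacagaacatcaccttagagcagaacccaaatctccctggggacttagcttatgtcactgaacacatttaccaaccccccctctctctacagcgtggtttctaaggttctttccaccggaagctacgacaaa
The capitals in Il2ra are a pair of overlapping NF-kB matches beginning 201 and 200 bases before the start site, and Il2rg held no match to either motif. Of the 8 promoters, 1 held an NF-kB match, while 7.25% of 32851 promoters of the same length did. The STAT motif was found in 1 of the 8, against 7.02% of all, and lay 154 bases before the start site of Socs3 (chr11:117969502-117969530, minus strand, for the stretch shown), a gene that STAT3 is known to induce.
Socs3: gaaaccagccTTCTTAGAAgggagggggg
A match describes the letters only. Binding was not measured in these libraries.

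Library totals ran from 12005273 to 17278521 counts, and CPM below stands for counts scaled to each library's size and composition. Nfkb2 itself was at 268.5, 324 and 271 CPM in Nfkb2-/- and 558, 545 and 556 CPM in wild type, so the genotypes did not overlap but the transcript was not lost, and counts per gene cannot separate exons. Foxp3, which defines Tregs, was at 576.5, 448 and 549 CPM in Nfkb2-/- and 622, 407 and 484 CPM in wild type, and all 8 Treg and T cell markers passed the filter with 0 called. Of these, Ikzf2 alone separated, at 722, 794 and 823 CPM in Nfkb2-/- and 517, 539 and 436 CPM in wild type. Its log2 fold change was 0.65 (edgeR adjusted p = 0.0875), and it was named after its values were seen. Xist was at 592 to 883 CPM in Nfkb2-/- and 1.94 to 16.5 CPM in wild type, while the sum of 4 Y-linked genes was 40.0, 138 and 275 CPM against 465 to 498 CPM, so donor sex and genotype cannot be told apart in any comparison here. Each Nfkb2-/- library thus held both Xist and Y-linked RNA, the latter in unequal amounts. Whether female and male cells were mixed in these libraries, and of which genotype, was not tested. The 16 B cell markers summed to 538 to 606 CPM in Nfkb2-/-. In wild-type replicates 1, 2 and 3 they summed to 384, 1106 and 1037 CPM. Most of each sum was Ighm, at 494, 540 and 503 CPM in Nfkb2-/- and 258, 707 and 776 CPM in wild type, which overlapped. Of the 15 markers tested, 13 were lower in Nfkb2-/- without overlap, where 9.9% of all genes were. Cd79a, for example, was at 3.48 to 7.57 CPM in Nfkb2-/- and 20.1, 48.5 and 35.6 CPM in wild-type replicates 1, 2 and 3. The 7 markers of resting T cells summed to 4280 to 5044 CPM against 4952 to 6174 CPM, with 0 called, and the median log2 fold change of the 3 dendritic cell markers tested was -0.24. Of these Zbtb46 alone was called, higher at 86.8 to 118 CPM against 16.5 to 42.1 CPM, and the other 4 markers of the list had lower means in Nfkb2-/-. The 5 markers of natural killer and innate lymphoid cells summed to at most 23.3 CPM in any library, with Eomes called higher in Nfkb2-/-. The part of such cells in the results below was not tested. Wild-type replicate 1 held the lowest level of 7 of the 10 genes described here, and of 31.5% of all 13347 genes tested.

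Per kilobase of exon, the beta chain had the highest mean of the 10 transcripts and Socs2 the lowest in both genotypes. In wild-type Tregs Il2rb averaged 222 ± 50.0 RPKM (CPM divided by the kilobases of annotated exon, SD, n = 3), followed by Jak2 at 141 ± 30.4, Jak1 at 139.9 ± 11.3, Socs3 at 132 ± 64.6, Il2ra at 100.5 ± 9.84 and Il2rg at 88.6 ± 18.6 RPKM. The ranges of neighbouring genes overlapped throughout this upper group, so neighbours were not separated, while Il2rb (166 to 262 RPKM) lay wholly above Il2ra (92.0 to 111 RPKM) and Il2rg (70.8 to 108 RPKM). Jak3 at 44.7 ± 13.8 and Cish at 31.9 ± 3.18 RPKM came next and overlapped each other, and Socs1 at 19.0 ± 8.54 and Socs2 at 2.69 ± 0.117 RPKM were each separated from the gene above. In Nfkb2-/- Tregs the order was more spread out: Il2rb at 324 ± 29.5 and Jak2 at 228 ± 21.3 RPKM stood apart from each other and from Socs3 (143 ± 7.47), Il2rg (140.4 ± 10.7) and Jak1 (129 ± 3.91), which overlapped as neighbours. Il2ra followed at 77.0 ± 8.58 RPKM, below the gamma chain. With the longest annotated transcript as the length, Il2rb remained first and Socs2 last, but Jak1 (206 RPKM) ranked above Jak2 (141 RPKM) in wild type. In Nfkb2-/- with that length, Jak2 (203 to 242 RPKM) overlapped with Il2rg (184 to 212 RPKM), which ranked above Socs3.

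**Figure D1:**
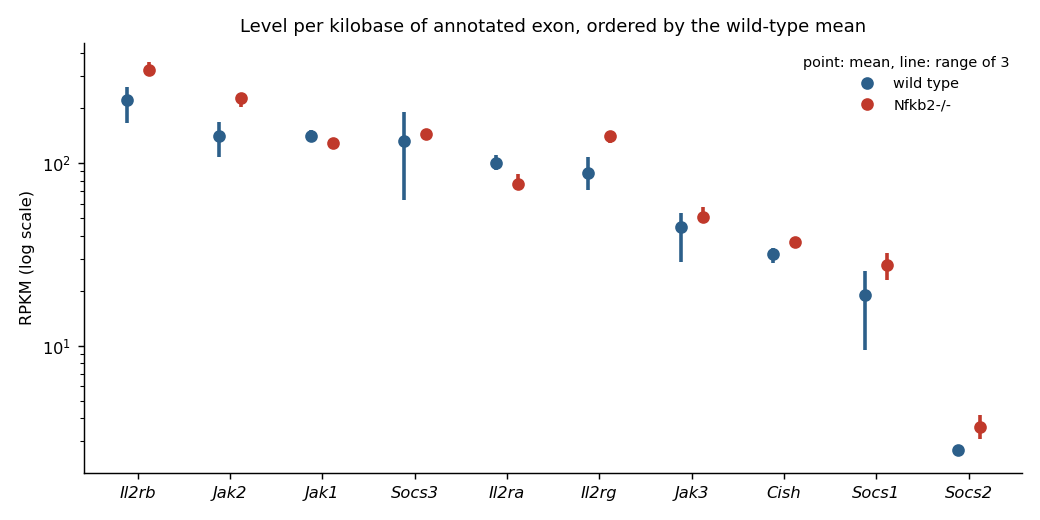
Level of each gene per kilobase of annotated exon (RPKM, log axis), with genes on the horizontal axis ordered by their wild-type mean; points are means and lines the range of 3 libraries. Il2rb is highest and Socs2 lowest in both genotypes, and Il2rg lies below Il2ra in wild type (88.6 against 100.5 RPKM) but above it in Nfkb2-/- (140.4 against 77.0 RPKM).

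All 10 genes passed the count filter, and none was called between the genotypes by edgeR at an adjusted p under 0.05 (quasi-likelihood fit, adjusted over all genes after Benjamini and Hochberg), where 1.42% of 13347 tested genes were: 1.01% higher in Nfkb2-/- and 0.405% lower. At an unadjusted p under 0.05 there were 5 of the 10 (Il2ra, Il2rb, Il2rg, Jak2 and Socs2), against 13.6% of all genes, and DESeq2 called 2 of the 10 higher, against 3.21% of all genes. In those same 5 genes the CPM of the 3 Nfkb2-/- libraries did not overlap with wild type, against 20.6% of all genes: Il2rb, Il2rg, Jak2 and Socs2 were above, where 10.7% of all genes were, and Il2ra was below, where 9.9% were. The log2 fold change (Nfkb2-/- over wild type) was positive in 8 of the 10, with a median of 0.32, whereas 45.0% of all genes were positive and their median was -0.03. The lowest count behind any value was 304, for Socs2, so counting alone gives an error of at most 5.74% for any library.

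**Figure D2:**
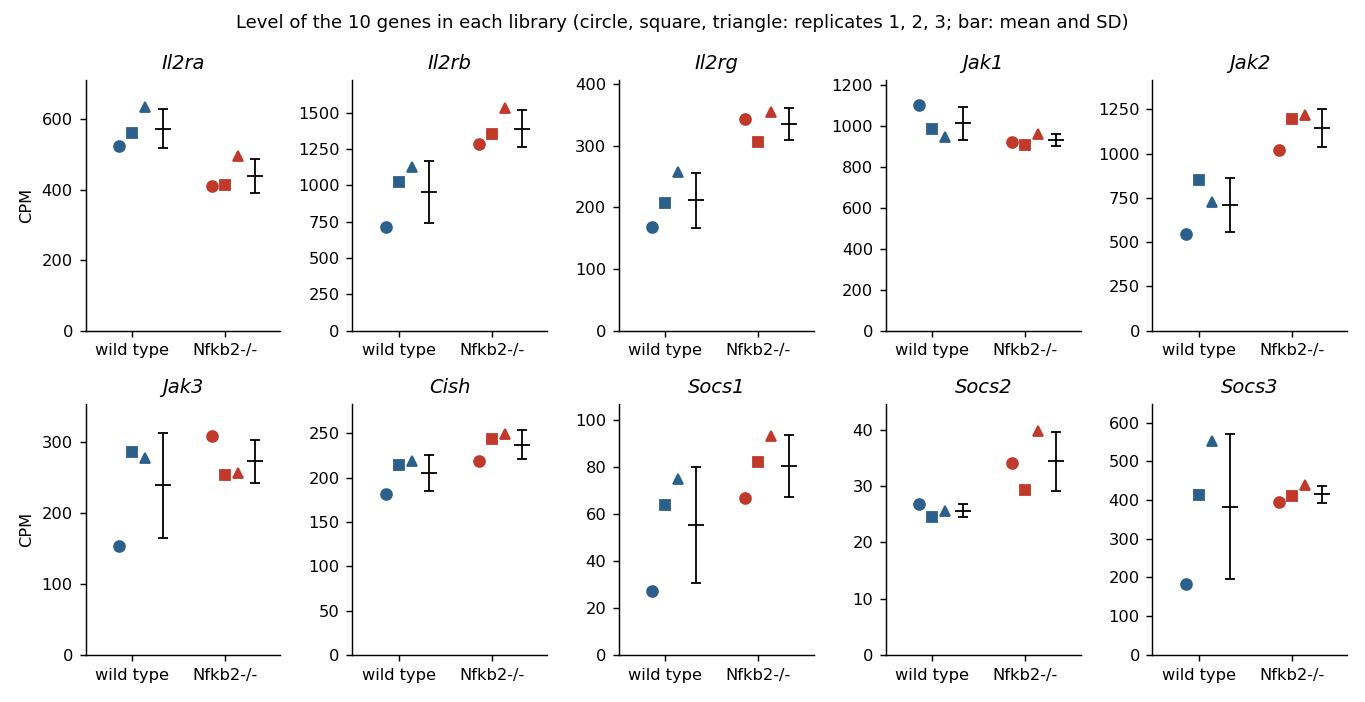
Level in CPM (vertical axes, from 0) of each of the 10 genes in the 3 wild-type (blue) and 3 Nfkb2-/- (red) libraries, with the mean and SD in black. The genotypes separate for Il2ra (lower in Nfkb2-/-) and for Il2rb, Il2rg, Jak2 and Socs2 (higher), and wild-type replicate 1 (circles) lies far below its replicates for Jak3, Socs1 and Socs3.

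None of the 3 chains of the IL-2 receptor was called in the fit of all libraries, and the libraries separated downward for the alpha chain and upward for the beta and gamma chains. Il2ra, the alpha chain, measured 409.7, 413 and 496 CPM in Nfkb2-/- replicates 1 to 3 and 525, 560.4 and 635 CPM in wild-type replicates 1 to 3. Every Nfkb2-/- library was below every wild-type library, by a narrow gap between 496 and 525 CPM. Its log2 fold change was -0.38 (95% interval -0.73 to -0.04, edgeR adjusted p = 0.305), a level 0.766 times that of wild type. Il2ra (ENSMUSG00000026770) lies at chr2:11642807-11693193, and the only annotated gene inside it, Gm37881, shares none of its exon bases.

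Il2rb, the signalling beta chain that is also used by interleukin-15, was at 1283, 1353 and 1528 CPM in Nfkb2-/- and at 712, 1024 and 1123 CPM in wild type. No wild-type library reached the lowest Nfkb2-/- library, and wild-type replicate 1 was the lowest of all. The log2 fold change was 0.54 (95% interval 0.08 to 1.01, edgeR adjusted p = 0.288). Il2rg, the gamma chain shared with the receptors of interleukins 4, 7, 9, 15 and 21, was at 344, 306.5 and 355 CPM in Nfkb2-/- and at 169, 208 and 258 CPM in wild type. It had the smallest p of the set, with a log2 fold change of 0.66 (95% interval 0.27 to 1.06), or 1.59-fold, at an edgeR adjusted p of 0.125. The gene is X-linked (ENSMUSG00000031304, chrX:101264378-101268255), and the libraries in which it was higher were those with high Xist; the part of sex in this difference cannot be told apart from that of genotype. It shares 728 exon bases with the read-through model Gm20489, which had 3 counts in all.

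Calls for the receptor chains depended on single libraries and on the tool. Without wild-type replicate 1, where 4.6% of all genes were called higher, Il2rg rose with a log2 fold change of 0.53 (edgeR adjusted p = 0.0231), while Il2ra was at -0.44 (adjusted p = 0.0502) and Il2rb at 0.37 (adjusted p = 0.122). DESeq2 also called Il2rg (adjusted p = 0.0211), as did edgeR with no count filter (adjusted p = 0.0387, with 1.08% of genes called higher). Adjusting for the Y-linked level gave log2 fold changes of -0.20 for Il2ra, 0.73 for Il2rb and 0.68 for Il2rg, none called. Adjusting for the summed B cell markers, a sum that was mostly Ighm and lowest in wild-type replicate 1, gave -0.33, 0.73 and 0.80. The latter pair was called in this fit, which called 12.6% of all genes higher. In bulk RNA, fewer cells that express a gene and less RNA per cell cannot be told apart.

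**Figure D3:**
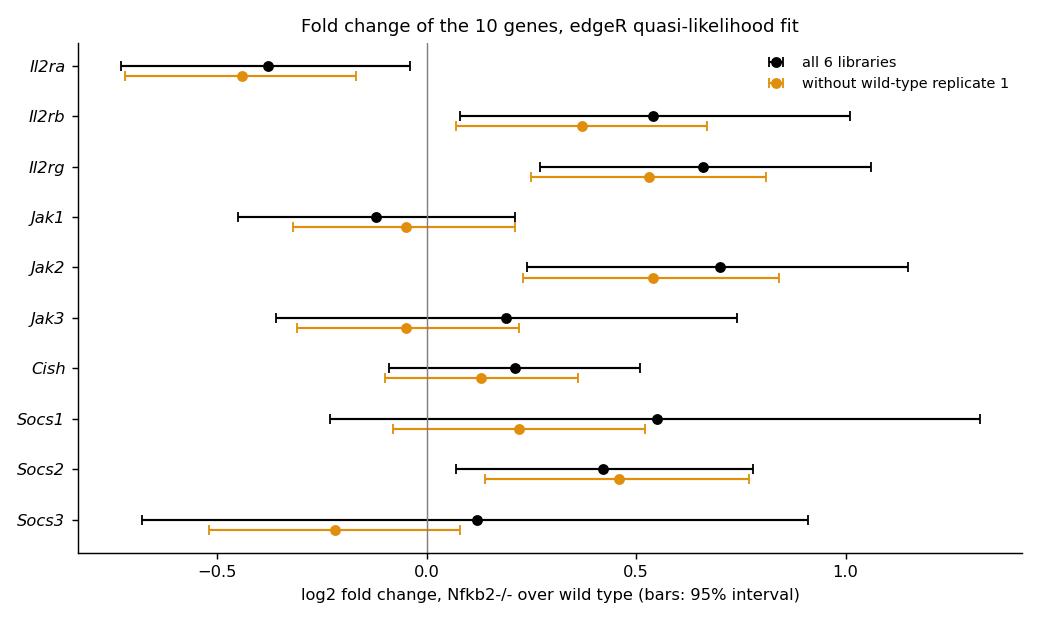
Log2 fold change (horizontal axis, Nfkb2-/- over wild type) of each gene in the edgeR fit of all 6 libraries (black) and without wild-type replicate 1 (orange), with 95% intervals that are not adjusted for the number of genes. Intervals stay on one side of 0 for Il2ra, Il2rb, Il2rg, Jak2 and Socs2 in both fits, and Jak3 and Socs3 change sign.

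Among the kinases, Jak2 separated the genotypes, and the pair that serves the IL-2 receptor overlapped. Jak2 was at 1023, 1196 and 1219 CPM in Nfkb2-/- and at 545, 849 and 729 CPM in wild type. The libraries of the genotypes did not overlap. Its log2 fold change was 0.70 (95% interval 0.24 to 1.15), or 1.62-fold, at an edgeR adjusted p of 0.155. Jak2 was called by DESeq2 (adjusted p = 0.0198), by edgeR with no count filter (adjusted p = 0.0388) and without wild-type replicate 1 (log2 fold change 0.54, adjusted p = 0.0311). It lies on the chromosome of the disrupted gene, at chr19:29251828-29313080, with its start 17.1 Mb from that of Nfkb2, and whether both loci came from the same donor strain was not tested.

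Jak1, which binds the beta chain, was at 922, 906 and 961 CPM in Nfkb2-/- and at 1103, 983 and 947 CPM in wild type. The genotypes overlapped, and the log2 fold change of -0.12 had a 95% interval of -0.45 to 0.21 (edgeR adjusted p = 0.786). Jak3, which binds the gamma chain, was at 308, 254 and 256 CPM in Nfkb2-/- and at 154, 286 and 277 CPM in wild type. Only wild-type replicate 1 was below all others, and the log2 fold change of 0.19 became -0.05 without that library (95% intervals -0.36 to 0.74 and -0.31 to 0.22). Exons of Jak3 share 404 bases with Insl3, on the same strand, and its counts are uncertain to that extent.

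The makeup of the JAK family per kilobase of exon differed between the libraries of the genotypes. Jak2 made up 53.8% ± 3.20 (SD, n = 3) of the summed RPKM of Jak1, Jak2, Jak3 and Tyk2 in Nfkb2-/- and 40.8% ± 5.51 in wild type, and these shares did not overlap (50.1% to 55.9% against 34.7% to 45.3%). Jak1 made up 30.4% ± 0.976 in Nfkb2-/- and 41.2% ± 6.64 in wild type, Jak3 12.1% ± 1.82 and 12.9% ± 3.24, and Tyk2 3.72% ± 0.508 and 5.07% ± 1.96. These shares are parts of a common total, so a larger Jak2 part makes the others smaller. The CPM of Jak1 itself overlapped between the genotypes, and the shares are not independent of the Jak2 level given above. The absolute shares depend on the gene lengths used: with the longest transcript Jak2 made up 44.9% in Nfkb2-/- and 32.5% in wild type.

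Of the feedback inhibitors, Socs2 alone separated the genotypes in all libraries. Cish, which encodes the STAT5-induced inhibitor CIS, was at 219, 243 and 249.7 CPM in Nfkb2-/- and at 182, 214 and 219 CPM in wild type. The lowest Nfkb2-/- library, at 218.6 CPM, fell just below the highest wild-type library, at 219.2 CPM. Its log2 fold change of 0.21 had a 95% interval of -0.09 to 0.51 (edgeR adjusted p = 0.553). Up to 479 exon bases of Cish lie opposite antisense models (Gm17040 and Gm17041) that had 30 and 0 counts, which unstranded libraries cannot separate.

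Socs1, an inhibitor of JAK1 and JAK2 that restrains IL-2 and interferon-gamma signalling, was at 66.9, 82.1 and 93.2 CPM in Nfkb2-/- and at 27.4, 63.9 and 74.8 CPM in wild type. The genotypes overlapped, and the log2 fold change of 0.55 (95% interval -0.23 to 1.32, edgeR adjusted p = 0.557) was 0.22 without wild-type replicate 1. With the replicate number as a block the log2 fold change of Socs1 was 0.65 (95% interval 0.14 to 1.16, edgeR adjusted p = 0.200). Socs2, best known as an inhibitor of growth hormone signalling and itself induced by STAT5, was the scarcest of the set, at 34.1, 29.4 and 39.7 CPM in Nfkb2-/- and at 26.8, 24.5 and 25.5 CPM in wild type. All Nfkb2-/- libraries were higher, with a log2 fold change of 0.42 (95% interval 0.07 to 0.78, edgeR adjusted p = 0.279), or 1.34-fold. Wild-type replicate 1 was the highest of its group here, unlike for Socs1 and Socs3, and without it the value was 0.46 (adjusted p = 0.0760).

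Socs3, induced by STAT3 and known as an inhibitor of receptors of the interleukin-6 family, was at 396, 409.5 and 438 CPM in Nfkb2-/- and at 183, 413 and 552 CPM in wild type. The 3 Nfkb2-/- libraries varied by 5.21% (coefficient of variation) and lay inside the wild-type range, which varied by 48.8%. The log2 fold change was 0.12 (95% interval -0.68 to 0.91, edgeR adjusted p = 0.924) and turned to -0.22 without wild-type replicate 1, so no direction is given for it. The replicate spread was also larger in wild type for Socs1 (44.9% against 16.4%), Jak3 (31.0% against 11.3%), Il2rb (22.5% against 9.10%), Jak2 (21.6% against 9.36%) and Il2rg (21.01% against 7.585%), each with wild-type replicate 1 the lowest. Cish (9.96% against 6.91%) and Jak1 (8.06% against 3.04%) went the same way. For Cish wild-type replicate 1 was again the lowest, but for Jak1 it was the highest library. The spread was smaller in wild type for Socs2 (4.34% against 15.1%) and Il2ra (9.795% against 11.1%).

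Ratios between genes of the same library do not depend on how libraries are scaled. The ratio of Il2ra to Il2rb in CPM was 0.319, 0.305 and 0.325 in Nfkb2-/- and 0.738, 0.547 and 0.566 in wild type. It was lower in every Nfkb2-/- library, with a difference of -0.95 on the log2 scale (two-sided exact permutation p = 0.1, the smallest that 3 against 3 libraries allow, and 0.2 adjusted over 4 ratios). Il2ra lay lower and Il2rb higher in every Nfkb2-/- library, so this ratio had to separate and its p-value had to be the smallest possible. The difference remained between -1.03 and -0.82 with each library left out in turn. The ratio of Cish to Il2ra was 0.534, 0.589 and 0.503 in Nfkb2-/- and 0.346, 0.382 and 0.345 in wild type, higher in every Nfkb2-/- library with a difference of 0.60 on the log2 scale (exact permutation p = 0.1, adjusted 0.2). The CPM ranges of Cish and Il2ra alone also forced this ratio to separate, so its p-value is no further result beside the lower Il2ra. The ratio of Il2ra to Foxp3 was 0.711, 0.921 and 0.904 in Nfkb2-/- and 0.844, 1.38 and 1.31 in wild type and overlapped (exact permutation p = 0.3, adjusted 0.4). Socs2 to Socs1 overlapped as well (0.357 to 0.51 against 0.341 to 0.976, exact permutation p = 0.9), with wild-type replicate 1 at the upper end.

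**Figure D4:**
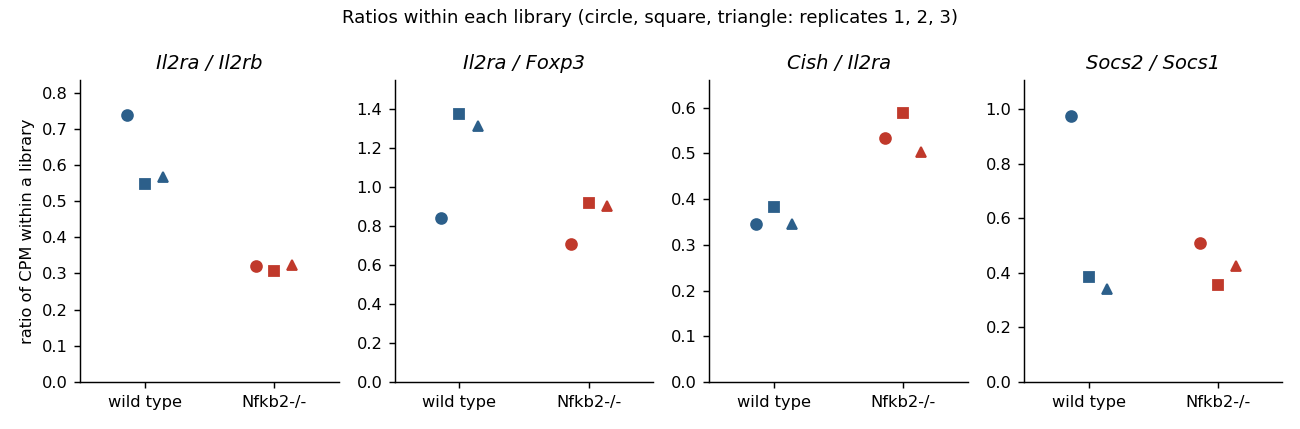
Ratio of CPM within each library (vertical axes, from 0) for 4 pairs of genes, in wild type (blue) and Nfkb2-/- (red). Il2ra to Il2rb lies at 0.305 to 0.325 in Nfkb2-/- and 0.547 to 0.738 in wild type, Cish to Il2ra is higher in every Nfkb2-/- library, and the other pairs overlap.

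The genes most like Il2ra and like the 3 members with the smallest p (Il2rg, Jak2 and Socs2) were sought among 8021 genes averaging 10 CPM or more, by Pearson's r of log2 CPM over the 6 libraries. All genes were measured in the same 6 libraries, with their genotypes and depths, and the values are descriptions without a test. For Il2rg they were Surf4 (r = 0.995), Actg1 (0.989) and Ddias (0.989). For Jak2 they were Lnx2 (0.997), Copg1 (0.996) and Ndnf (0.995), and for Socs2 Tmem158 (0.994), Prr3 (0.987) and Dyrk1a (0.985). The genes closest to Il2ra were Map1lc3a (0.990), Srebf2 (0.984) and Irf9 (0.979). None of these 12 genes was called by edgeR.

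No gene in the other lists of the pathway was called in the edgeR fit of all libraries. Of the remaining JAK and SOCS family (Tyk2, Socs4, Socs5, Socs6 and Socs7), 0 of 5 were called and the median log2 fold change was 0.17. Socs5 came nearest: it was at 99.1, 100.4 and 109 CPM in Nfkb2-/- and 64.7, 73.1 and 64.1 CPM in wild type, separated without overlap, with a log2 fold change of 0.61 (edgeR adjusted p = 0.0510, and 0.000526 by DESeq2). Socs7 had a log2 fold change of 0.20 and its libraries overlapped.

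Among the chains that pair with the gamma chain, 0 of 5 were called, with a median of -0.02. Il21r, the interleukin-21 receptor, was at 1239, 1568 and 1600 CPM in Nfkb2-/- and 619, 1058 and 1106 CPM in wild type (log2 fold change 0.66, edgeR adjusted p = 0.285). Il9r, the interleukin-9 receptor, had a log2 fold change of -0.72 at 5.63 to 7.36 CPM in Nfkb2-/- and 7.93 to 13.6 CPM in wild type. The libraries of the genotypes separated upward for Il21r and for the interleukin-7 receptor Il7r (275 to 352 against 206 to 265 CPM, log2 fold change 0.37), which was named after its values were seen, and downward for Il9r. The cytokines of this family were close to the detection limit: 3 of 6 passed the filter (Il2, Il4 and Il21), 0 were called, and their summed level was 3.56 to 7.95 CPM in Nfkb2-/- and 1.73 to 8.31 CPM in wild type. Il4 and Il21 had log2 fold changes of -0.84 and 0.44, with overlapping libraries. With a library left out Il4 ran from -1.62 to -0.55 and Il21 from -0.06 (without wild-type replicate 1) to 1.53 (without wild-type replicate 2), so no direction is given for Il21.

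Of 13 genes of STAT5 and the IL-2 signal, 0 were called and the median was -0.03. Their libraries separated upward for 3 (Stat5a, Grb2 and Akt1) and downward for 3 (Syk, Pik3cd and Pik3r1), where 10.7% and 9.9% of all genes did. Pik3cd was at 184 to 244 CPM in Nfkb2-/- and 267 to 327 CPM in wild type (log2 fold change -0.55, edgeR adjusted p = 0.159). DESeq2 called Stat5a, Syk and Pik3cd. Grb2, Akt1, Pik3cd and Pik3r1 were named after their values were seen. Stat5a, a transcription factor activated by IL-2, was at 1016, 1225 and 1280 CPM in Nfkb2-/- and at 811, 808 and 777 CPM in wild type (log2 fold change 0.56, edgeR adjusted p = 0.144, and 0.0241 without wild-type replicate 1). The wild-type libraries, replicate 1 included, lay close together for this gene. Syk, a kinase abundant in B cells, was at 4.72, 5.70 and 7.90 CPM in Nfkb2-/- and 12.3, 47.4 and 19.7 CPM in wild type (log2 fold change -2.11, edgeR adjusted p = 0.0987), beside a median of -2.28 for the 15 B cell markers tested, and the part of B cell RNA in it was not tested.

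Genes known as STAT5 targets in T cells had 0 of 15 called and a median of -0.06, with 7 positive. Cdkn1a, the cell cycle inhibitor p21, was at 156.5, 182 and 185 CPM in Nfkb2-/- and at 42.3, 77.4 and 105 CPM in wild type, without overlap. Its log2 fold change was 1.22 (edgeR adjusted p = 0.105), and with the replicate number as a block it was called, at 1.31 (edgeR adjusted p = 0.0405). Bcl2l1, which encodes the survival protein BCL-XL, was at 108, 129 and 156 CPM in Nfkb2-/- and 86.4, 78.5 and 74.6 CPM in wild type (log2 fold change 0.72, edgeR adjusted p = 0.0795). DESeq2 called both (adjusted p = 0.0042 and 0.0040). It also called Mcl1, another survival gene, in the other direction, at 366 to 388 CPM in Nfkb2-/- and 484 to 518 CPM in wild type (log2 fold change -0.41, edgeR adjusted p = 0.173). Of the 15 targets, 4 separated upward (Cdkn1a, Bcl2l1, Prdm1 and Osm) and 3 downward (Mcl1, Ccnd3 and Lta), where 10.7% and 9.9% of all genes did. Those outside the pair with the smallest p were named after their values were seen.

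The 4 partners of the SOCS-box ubiquitin ligase (Cul5, Rnf7, Elob and Eloc) had log2 fold changes between -0.07 and 0.06, with 0 called and 0 separated. Cul5, the scaffold of this ligase, and Elob, an adaptor, were both at -0.07. Of 11 phosphatases, PIAS proteins and adaptor inhibitors, 0 were called and the median was -0.05. Sh2b3, an adaptor that restrains JAK2, was the only one whose libraries separated, at 72.6 to 82.7 CPM in Nfkb2-/- and 89.7 to 95.03 CPM in wild type (log2 fold change -0.22, edgeR adjusted p = 0.456). Usp18, an inhibitor of interferon receptor signalling, had a log2 fold change of -0.65 with overlapping libraries, and -0.33 without wild-type replicate 1.

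**Figure D5:**
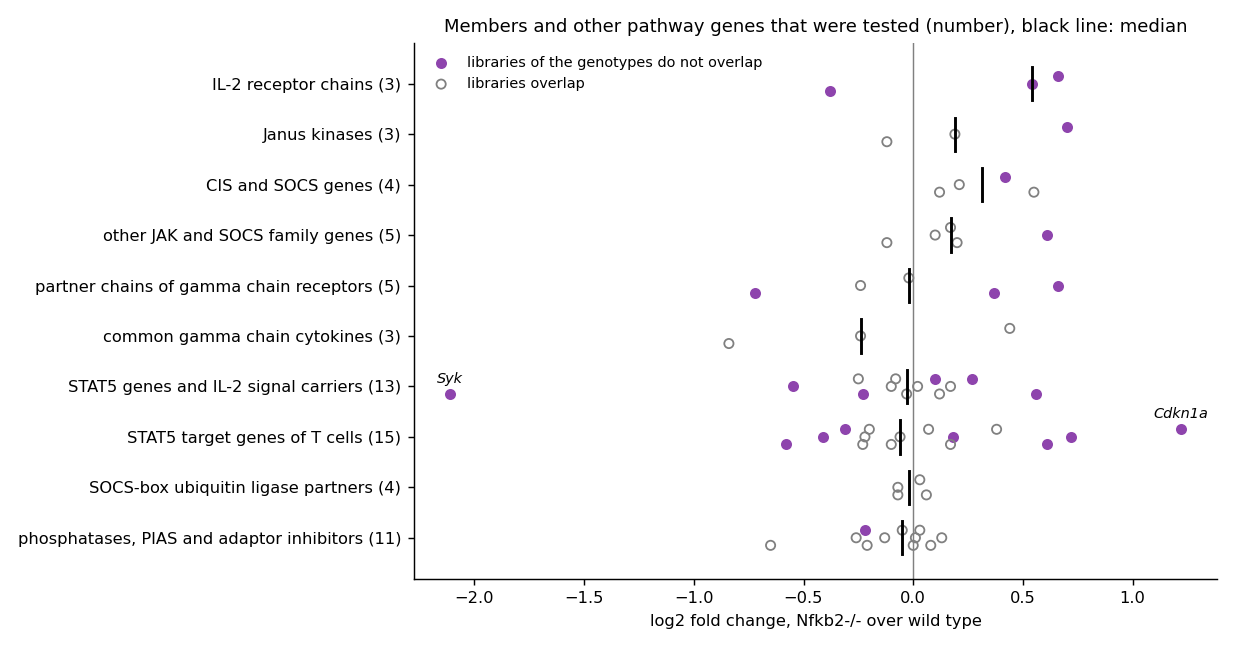
Log2 fold change (horizontal axis) of every tested gene in each group of the pathway (vertical axis, number tested in brackets). Filled points are genes whose libraries do not overlap between genotypes, open points those that overlap, and black lines are medians. Syk (-2.11) and Cdkn1a (1.22) lie farthest out, and all 4 SOCS-box partners lie near 0.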

How the data were processed

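RNA-seq of 6 libraries, 3 per genotype, was analysed. The deposited values are raw read counts per Ensembl gene. Tools listed in the submitters' processing notes are HISAT2, HTSeq, FastQC and DESeq2, with GRCm38 and no versions. Libraries were unstranded, per the labels' protocols. How HTSeq treated shared reads is not stated there. Of 55573 identifiers, 55480 matched GENCODE M21, which gave symbols, positions and exon lengths.

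Tests used edgeR 4.0.16 under R 4.3.3 (filterByExpr, TMM, robust quasi-likelihood fit, genotype as the only term), adjusted over 13347 genes. CPM use TMM-scaled totals of filtered genes. Alternatives used DESeq2 1.42.0 and limma 3.58.1. The code was tested on simulated data. Replicates differed by more than sampling noise in every pair (chi-square over its degrees of freedom, 5.82 to 106). Same-numbered libraries of the genotypes deviated together (r = 0.364, 0.267 and 0.111, each over 0.1). However, Nfkb2-/- replicate 3 deviated more with wild-type replicate 2 (r = 0.251) than with its own number. The numbers were used as pairs only in the replicate block fit. The main fit and the permutation tests were unpaired, and the labels do not say what a number marks.

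Named genes were the 10 members, Nfkb2, Foxp3, the up to 4 called or otherwise 2 lowest-p genes of each pathway list, and the 3 genes most like each of 4 members; Xist, Y-linked genes and B cell markers were added as checks. Members, lists and covariates were chosen with earlier results of these data known.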

Additional observations from a re-analysis of the deposited data

How the results depend on the processing

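Of the 10 genes, Il2ra, Il2rb, Il2rg, Jak1, Jak2, Cish, Socs1 and Socs2 kept their direction under all 15 alternative fits. With a library left out Jak3 ranged from -0.05 to 0.33, Socs3 from -0.22 to 0.47 and the log2 ratio of Socs2 to Socs1 from -0.52 to 0.24. Jak3 turned from 0.19 to -0.01 with the Y-linked covariate and to -0.05 without wild-type replicate 1, and Socs3 from 0.12 to -0.22 without that library. Foxp3 turned from 0.06 to -0.05 with the Y-linked covariate, -0.07 with the B cell covariate, and -0.02 and -0.08 without Nfkb2-/- replicate 1 and wild-type replicate 2. The log2 ratio of Socs2 to Socs1 turned from -0.24 to 0.24 without wild-type replicate 1. The cause was not tested.

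The number of the 10 genes called higher was 0 in edgeR, 2 with no count filter, 2 by DESeq2, 6 with the B cell covariate (Il2rb, Il2rg, Jak2, Jak3, Socs1 and Socs3, where 12.6% of all genes were called higher) and 0 to 2 with a library left out; 0 were called lower throughout. Other pathway genes called numbered 0 in edgeR, 2 with no count filter, 7 by DESeq2, 1 with the replicate block, 17 with the B cell covariate and 0 to 11 with a library left out. Of all genes, the first 5 of these fits called 1.42%, 1.72%, 5.09%, 2.17% and 24.2% in either direction. The fit without wild-type replicate 1, which gave the 11, called 9.04%. Over all genes, 135 were higher and 54 lower, against 292 and 174 with no count filter, 428 and 252 by DESeq2, 196 and 93 with the replicate block, 6 and 1 with the Y-linked covariate, and 1683 and 1542 with the B cell covariate. With a library left out these counts ran from 6 to 628 and from 1 to 606, the highest without wild-type replicate 1 and the lowest without Nfkb2-/- replicate 2 (and, for lower genes, also replicate 3). The block changed no call among the 10 genes. Nfkb2 was called in all 6 libraries (-0.94) but not without Nfkb2-/- replicate 1, 2 or 3 or wild-type replicate 2 or 3 (adjusted p 0.0567 to 0.176), nor with the Y-linked covariate (0.502), while its log2 fold change stayed between -1.03 and -0.90 in these fits. Counting error was at most 5.74% for any of the 10 genes.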
